A study of Homo sapiens with 2 samples.

Results

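Complement genes were compared between 2 human hepatocellular carcinoma cell lines, MHCC97H and MHCC97L. The 9 genes described here, of 44591 in the table, were taken by name: the components C2, C3, C5, CFB and CFD, the soluble inhibitor CFI, and the membrane regulators CD46, CD55 and CD59. Both lines are labelled wild type with no treatment named, and were grown in Dulbecco's medium with fetal bovine serum. The submitters describe MHCC97H as high and MHCC97L as low in spontaneous metastasis. The lines are sublines of 1 parental tumour line, so each stands for 1 clone and not for a class of tumours. The series' title gives its aim as a search for RNA-binding proteins linked to metastasis, and complement was not its subject.

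Complement is a cascade of blood proteins, most of them made by the liver, that marks surfaces and can punch pores in membranes. The classical and lectin pathways cut C4 and C2 to build one C3 convertase. The alternative pathway builds another from C3b and factor B, which factor D cuts. Both convertases split C3, and with added C3b they split C5, which starts assembly of the membrane attack complex. Human cells carry CD46, CD55 and CD59 on their surface against this. CD46 (membrane cofactor protein) helps factor I degrade C3b and C4b, CD55 (decay-accelerating factor) takes convertases apart, and CD59 blocks the last step of the attack complex. Tumour cells are known to keep these regulators.

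The stretches just upstream of the start site are shown for members that lay on different sides of the comparison, so that their base composition and simple core elements can be read beside the values. They are RefSeq sequences of build GRCh38.p14, which differs from the hg19 build of the counts. Each is 250 bases, 5′ to 3′ on the gene's strand and ending at the base before the start. Capitals mark matches, on either strand, to 4 short motifs. The TATA box was searched as TATAAA and the GC box, known to bind SP1, as GGGCGG. The promoter element named for its letters CCAAT was searched as such, and the STAT motif as TTCNNNGAA. The positions are chr6:31945845-31946094 (+ strand) for CFB, chr19:859414-859663 (+ strand) for CFD, chr9:121050276-121050525 (- strand) for C5, chr1:207751804-207752053 (+ strand) for CD46, chr1:207321428-207321677 (+ strand) for CD55 and chr11:33736480-33736729 (- strand) for CD59. An entry was used where its start lay within 500 bases of the start of the gene's representative GENCODE transcript, a limit set after the data were seen. The distance was 386 bases for CFB, 302 for CD55 and at most 21 for the others shown. C2 had no such entry, and C3 is named only.
CFB: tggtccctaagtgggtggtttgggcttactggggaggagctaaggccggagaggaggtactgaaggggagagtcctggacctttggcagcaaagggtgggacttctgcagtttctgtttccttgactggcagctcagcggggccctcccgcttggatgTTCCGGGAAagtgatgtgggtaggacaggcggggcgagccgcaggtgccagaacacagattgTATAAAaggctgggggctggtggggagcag
CFD: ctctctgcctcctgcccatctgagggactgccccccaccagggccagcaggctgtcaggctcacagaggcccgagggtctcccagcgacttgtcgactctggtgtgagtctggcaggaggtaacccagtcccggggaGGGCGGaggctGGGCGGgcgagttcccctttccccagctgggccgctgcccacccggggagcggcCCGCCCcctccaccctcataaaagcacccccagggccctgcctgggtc
C5: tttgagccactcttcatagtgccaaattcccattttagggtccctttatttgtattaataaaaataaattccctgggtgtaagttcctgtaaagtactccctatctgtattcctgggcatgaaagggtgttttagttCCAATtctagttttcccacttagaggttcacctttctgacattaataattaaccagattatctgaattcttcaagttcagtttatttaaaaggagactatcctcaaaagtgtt
CD46: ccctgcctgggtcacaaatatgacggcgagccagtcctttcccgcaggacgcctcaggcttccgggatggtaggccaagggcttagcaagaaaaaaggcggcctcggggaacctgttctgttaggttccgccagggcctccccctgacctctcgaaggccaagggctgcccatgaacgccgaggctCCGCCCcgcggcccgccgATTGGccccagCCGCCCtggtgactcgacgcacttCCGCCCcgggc
CD55: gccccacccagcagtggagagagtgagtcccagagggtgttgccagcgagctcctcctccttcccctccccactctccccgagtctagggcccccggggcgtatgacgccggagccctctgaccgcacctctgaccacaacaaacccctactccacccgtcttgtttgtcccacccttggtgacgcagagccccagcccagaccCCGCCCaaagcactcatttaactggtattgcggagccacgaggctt
CD59: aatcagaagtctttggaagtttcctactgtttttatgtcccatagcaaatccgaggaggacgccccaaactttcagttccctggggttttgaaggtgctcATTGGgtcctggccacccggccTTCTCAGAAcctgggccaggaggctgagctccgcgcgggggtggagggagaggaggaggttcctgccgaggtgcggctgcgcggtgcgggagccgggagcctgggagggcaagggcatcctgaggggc

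Among all 35116 RefSeq promoter entries of the same length, 10.7% held the TATA box, 42.6% the GC box, 32% the CCAAT box and 6.57% the STAT motif. CFB, whose product is the catalytic part of the alternative convertase, held a TATA box 30 bases before its start and a STAT motif. CFD and CD46 each held 3 GC boxes, CD55 held 1, and CD46 also held a CCAAT box. CD59 held a CCAAT box and a STAT motif, and C5 held a CCAAT box. The C5 stretch was the only one of the 6 without a CpG, at 34.8% GC against a median of 58.0% over all entries, while CFD stood at 70.8% and CD46 at 67.6% with 21 CpGs. No motif overlapped another. The matches are descriptions of letters, and a missing match says only that the letters are not in this window.

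A single library stood for each line, and the table counted 28967153 reads in MHCC97H and 24964246 in MHCC97L. Differences therefore had no replicate check, and no p-value is given. All comparisons are between these 2 libraries. Levels are in CPM, the reads of a gene per 1000000 reads of the library size after TMM scaling. In bulk RNA, fewer cells that express a gene and less of its RNA per cell cannot be told apart. Intervals are 95% exact intervals of the read counts and cover counting error only, since reads were not tied to molecules by identifiers. A count of 0 allowed up to 0.0976 CPM in MHCC97H and 0.128 CPM in MHCC97L (3 reads). The libraries had the marks of hepatocyte-derived epithelium only in part. KRT8 stood at 8075 CPM against 9060 CPM and SERPINA1 at 5800 CPM against 8422 CPM, in MHCC97H and MHCC97L in that order here and below. KRT8 is 1 of 7 listed hepatocellular carcinoma and progenitor markers. Among the others KRT18 stood at 5275 CPM against 4870 CPM and KRT19 at 531.0 CPM against 555.4 CPM. EPCAM stood at 371.1 CPM against 299.8 CPM and SOX9 at 150.4 CPM against 182.0 CPM. GPC3 stood at 52.0 CPM against 52.5 CPM, and AFP had 12 reads against 23. The hepatocyte-defining ALB was low, at 1.85 CPM against 5.57 CPM. By the filter and rule of size given below, 4.65% of all kept genes were lower in MHCC97H and 7.06% higher. Among kept genes with a mean level under 10 CPM these shares were 10.3% and 12%. Of 15 hepatocyte markers 8 were kept, 2 were lower in MHCC97H (ALB and AHSG) and none was higher. AHSG passed the filter only through MHCC97L, so it could not have been called higher. The summed level was 5968 CPM against 8643 CPM, most of it SERPINA1. With the GC and length trends removed APOB (-1.32) was also lower. CYP3A4 had 0 reads against 11. Of 9 fibroblast and stellate markers 6 were kept, with COL1A2, PDGFRB and FBLN1 lower and FAP higher, at a summed level of 32.1 CPM against 43.1 CPM, and THY1 had 3 reads against 4. After removal of the GC and length trends COL1A2 and FBLN1 remained lower, and PDGFRB (-0.97) and FAP (0.41) did not meet the rule. With total counts PDGFRB (-0.95) did not meet it either. Of 9 leukocyte markers 6 were kept and none met the rule, at a summed level of 2715 CPM against 2468 CPM. Most of that was LYZ, which some epithelia also make, at 2693 CPM against 2443 CPM. LAPTM5 stood at 5.46 CPM against 10.5 CPM, CD68 at 7.58 CPM against 6.29 CPM and CD14 at 4.75 CPM against 3.53 CPM, while PTPRC had 1 read against 0 and CD3E had none. Of 6 endothelial markers 2 were kept and neither met the rule, at a summed level of 187.6 CPM against 199.8 CPM. These were ENG, at 95.8 CPM against 122.9 CPM, and ESAM, at 91.5 CPM against 76.3 CPM, while CDH5 had 2 reads against 1. The part of these marker differences in the values below was not tested.

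The 9 genes together took 13782 reads in MHCC97H and 8513 in MHCC97L, and the membrane regulators made up nearly all of them. CD46, CD55 and CD59 held 92.0% of the reads in MHCC97H (95% exact interval 91.5 to 92.4) and 89.2% in MHCC97L (88.5 to 89.8). The 4 convertase genes C2, C3, CFB and CFD held 7.53% (7.10 to 7.98) and 10.5% (9.82 to 11.1). C5 held 0.493% and 0.352%. In both libraries the genes that restrain complement on the cell surface took a much larger share of the reads than those of the cascade.

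**Figure D1:**
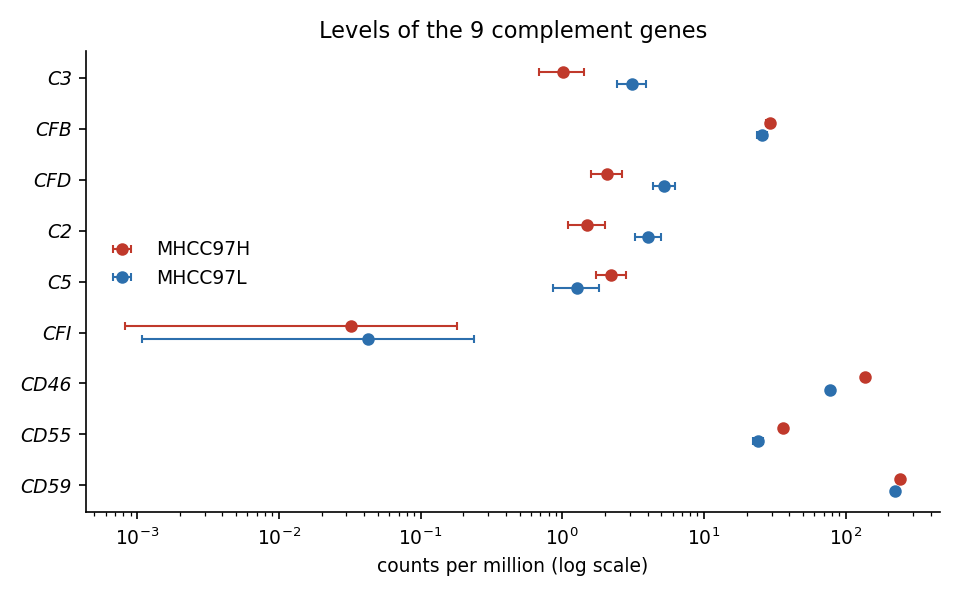
Level of each of the 9 genes in CPM, on a log scale, in the MHCC97H library (red) and the MHCC97L library (blue), with 95% Poisson intervals. C3, CFD and C2 lie at 1.01 to 5.23 CPM with MHCC97L higher, CD46 and CD55 lie at 24.1 CPM or more with MHCC97H higher, and CFI has 1 read in each library.

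C3, the protein on which all pathways converge, had 31 reads in MHCC97H and 73 in MHCC97L, or 1.01 CPM (95% interval 0.685 to 1.43) against 3.10 CPM (2.43 to 3.90). It was 3.04-fold lower in MHCC97H (2.00 to 4.85). C2, the serine protease of the classical convertase, had 46 reads against 95, or 1.5 CPM (1.10 to 2.00) against 4.04 CPM (3.27 to 4.94), and was 2.68-fold lower (1.88 to 3.93). CFD, the protease that activates factor B, had 64 reads against 123, or 2.08 CPM (1.60 to 2.66) against 5.23 CPM (4.35 to 6.24), and was 2.50-fold lower (1.84 to 3.45). For these 3 genes the intervals of the levels did not overlap between the libraries, and the same held for CD46, CD55 and CD59. How many of all genes show this was not counted, so it sets no gene apart. CFB did not share the direction of C2, C3 and CFD. It had 897 reads against 600, or 29.2 CPM (27.3 to 31.1) against 25.5 CPM (23.5 to 27.6), a 1.14-fold difference with MHCC97H higher (1.03 to 1.27).

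By a rule of size, a log2 ratio of at least 1 in either direction with an interval that excludes equality, C2, C3 and CFD were lower in MHCC97H and no member was higher, of the 8 members that passed the filter of 1 CPM. Of all 14578 genes that passed, 4.65% were lower and 7.06% higher. The 3 genes are weakly expressed, and among the 5409 kept genes with a mean level under 10 CPM the shares were larger, 10.3% lower and 12% higher. Of all kept genes, 1.41% had a lower log2 ratio than C3 (-1.60), 2.03% than C2 (-1.42) and 2.46% than CFD (-1.32). The median log2 ratio of the 8 members was 0.16, against 0.025 over all kept genes. That median hides the split of the list into 3 negative and 5 positive values.

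**Figure D2:**
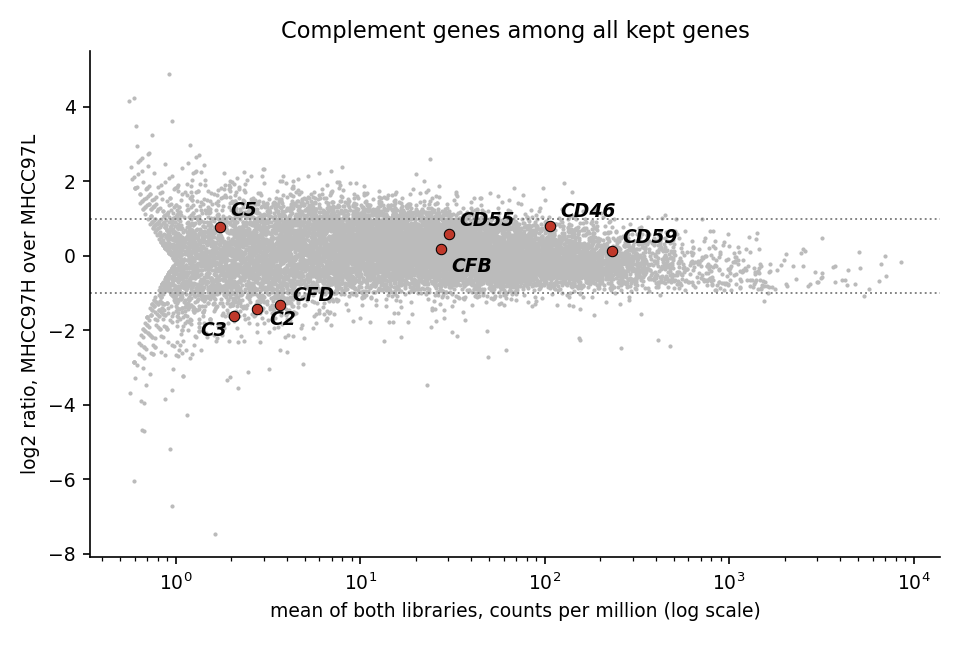
Log2 ratio of MHCC97H over MHCC97L against the mean level of both libraries, in CPM on a log scale, for all 14578 kept genes (grey) and the 8 kept complement genes (red). Dotted lines mark log2 ratios of -1 and 1; C3, C2 and CFD lie below the lower line at low levels, and the other 5 genes lie between the lines.

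C5, whose cleavage starts the terminal pathway, went the other way from its homolog C3. It had 68 reads in MHCC97H and 30 in MHCC97L, or 2.21 CPM (1.72 to 2.80) against 1.28 CPM (0.861 to 1.82), and was 1.72-fold higher in MHCC97H (1.11 to 2.76). The intervals of the 2 levels overlapped slightly. CFI, the protease that degrades C3b and C4b with the help of CD46, had 1 read in each library. It did not pass the filter, both values were under the limit that a count of 0 allows, and no fold is given.

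CD46 showed the largest difference among the abundant members. It had 4182 reads against 1821, or 136.0 CPM (131.9 to 140.2) against 77.4 CPM (73.9 to 81.1), and was 1.76-fold higher in MHCC97H (1.66 to 1.86). CD55, a glycosylphosphatidylinositol (GPI) anchored protein, had 1114 reads against 567, or 36.2 CPM (34.1 to 38.4) against 24.1 CPM (22.2 to 26.2), and was 1.5-fold higher (1.36 to 1.67). CD59, also GPI anchored, had 7379 reads against 5203, or 240.0 CPM (234.6 to 245.5) against 221.2 CPM (215.2 to 227.3), a 1.08-fold difference (1.05 to 1.12). None of the 3 met the rule of size. At a threshold of 1.5-fold, CD46, CD55 and C5 were higher in MHCC97H and C2, C3 and CFD were lower. CD55 met that threshold only narrowly, at 1.503-fold (log2 ratio 0.587). With DESeq2 size factors its log2 ratio was smaller, at 0.562, and the threshold was not tried there. These calls rest on counting error alone. If each library is taken to vary by a coefficient of variation of 0.2, the interval of the log2 ratio included equality for C5 (-0.22 to 1.81) and CD55 (-0.23 to 1.40), as for CFB and CD59, and just excluded it for CD46 (0.0092 to 1.62). Of all kept genes 19.3% were higher and 13.8% lower at that threshold.

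Per kilobase of the representative transcript, the order of the members in MHCC97L was CD59 (29 CPM per kilobase), CD46 (23.6), CFB (8.91), CD55 (8.34), CFD (4.35), C2 (1.42), C3 (0.590) and C5 (0.233), with CFI last. CFB and CD55 did not differ beyond counting error there, with intervals of 8.21 to 9.66 and 7.66 to 9.05. In MHCC97H the order was CD46 (41.5 CPM per kilobase), CD59 (31.5), CD55 (12.5), CFB (10.2), CFD (1.73), C2 (0.525), C5 (0.405) and C3 (0.192). There C2 and C5 overlapped, with intervals of 0.384 to 0.700 and 0.314 to 0.513. CD46 and CD59 thus stood in opposite order in the libraries, as did CFB and CD55, and C3 and C5. The order of CD46 and CD59 rests on the length used. Over the union of all annotated exons CD59 led in both libraries, at 23.2 against 15.6 CPM per kilobase for CD46 in MHCC97H and 21.4 against 8.89 in MHCC97L. That length also put C5 above C2 in MHCC97H and CFD above CD55 in MHCC97L.

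Ratios of reads between 2 members in the same library do not depend on how the libraries are scaled, and 6 pairs, chosen after their values were seen, were compared in this way. CFB had 19.5 reads per C2 read in MHCC97H and 6.32 in MHCC97L, a 3.09-fold difference (95% exact interval 2.11 to 4.56). These homologs, the catalytic subunits of the alternative and the classical convertase, lie next to each other on chromosome 6. C5 had 2.19 reads per C3 read in MHCC97H and 0.411 in MHCC97L, a 5.29-fold difference (2.81 to 10.2). CD46 had 135 reads per C3 read in MHCC97H and 24.9 in MHCC97L, a 5.41-fold difference (3.49 to 8.55). Between membrane regulators the differences were smaller. The ratio of CD46 to CD55 reads was 3.75 against 3.21, a 1.17-fold difference (1.04 to 1.31), and the ratio of CD46 to CD59 reads was 0.567 against 0.350, a 1.62-fold difference (1.52 to 1.73). The ratio of CD55 to CD59 reads was 0.151 against 0.109, a 1.39-fold difference (1.24 to 1.54). These ratios are not free of base composition, in which several pairs differ. After removal of the GC and length trends the difference was 2.89-fold for C5 to C3, 2.90-fold for CD46 to C3 and 2.92-fold for CFB to C2, and 1.03-fold to 1.27-fold between membrane regulators.

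The log2 ratio fell with the GC content of the transcript across all genes, with a Spearman correlation of -0.64 over 13838 genes, which share 2 libraries and are not independent. The members spanned that range. CD46, at 38.3% GC, lay in the lowest GC decile of genes, where the median log2 ratio was 0.74, and its own was 0.81. C5 and CD55, at 39.9% and 41.4%, lay in the second decile, with a median of 0.61 and values of 0.79 and 0.59. CD59, at 45.5%, had 0.12 against a median of 0.27 in its decile. These 4 genes were thus near the middle of genes of like composition, with 56.6%, 65.3%, 47.9% and 35.9% of their decile below CD46, C5, CD55 and CD59.

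CFB, C2, C3 and CFD are richer in GC, and 3 of them stood below genes of like composition. C2, at 54.9% GC, had a log2 ratio of -1.42 against a median of -0.19 in its decile, and 2.31% of that decile lay lower. C3, at 56.5%, had -1.60 against -0.26, with 2.24% lower. CFD, at 65.4%, had -1.32 against -0.45, with 4.62% lower. CFB, at 53.2%, stood above its decile, at 0.19 against -0.042. With a smooth trend with GC content and length removed from all genes, C3 (-1.46) and C2 (-1.25) remained lower by the rule and CFD (-0.71) did not meet it. On that scale 3.64% of all genes were lower and 2.32% higher. CD46 (0.071), C5 (0.067) and CD55 (0.024) came close to 0, CFB stood at 0.29 and CD59 turned negative, at -0.28.

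**Figure D3:**
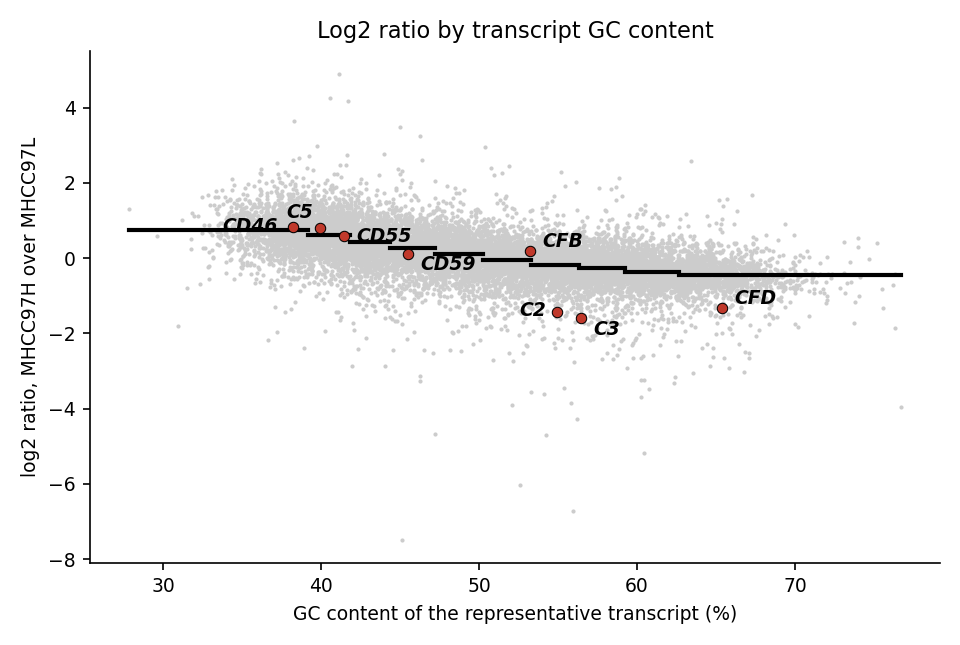
Log2 ratio of MHCC97H over MHCC97L against the GC content of the representative transcript for 13838 kept genes (grey) and 8 complement genes (red); black bars are the medians of deciles of genes by GC content, falling from 0.74 to -0.45. CD46, C5, CD55 and CD59 lie close to the bars, and C2, C3 and CFD lie below them.

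**Figure D4:**
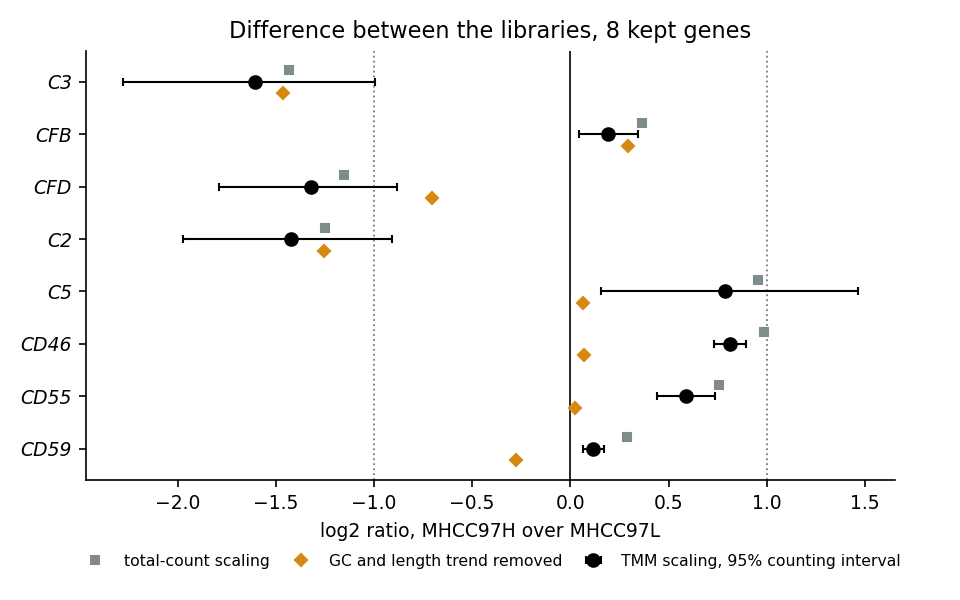
Log2 ratio of the 8 kept genes with TMM scaling (black, with 95% counting intervals), with total-count scaling (grey squares) and after removal of the GC and length trends (orange diamonds); dotted lines mark -1 and 1. C3 and C2 stay below -1 in each treatment, CFD moves to -0.71 with the trend removed, and CD46, C5 and CD55 move to 0.071 or less.

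Some members overlap neighbouring gene models. The strand setting of the counting is unknown, so part of the reads in such stretches may come from the neighbour. C2 and CFB share 23 exonic bases, and both overlap a readthrough gene without a row in the table. With that gene C2 shares 1820 exonic bases and CFB 2249. How its reads bear on the C2 and CFB counts was not tested. C2 also shares 141 exonic bases with ZBTB12 on the opposite strand, which had 267 reads against 360 (log2 ratio -0.82), and 159 with its antisense gene C2-AS1, which had 2 reads against 0. CD59 and CFI overlap further genes on their own strand that have no row, with 629 and 1562 exonic bases shared. C5, CFD and CD55 overlap none, and C3 and CD46 share no exonic base with another gene. For each member the 3 nearest kept genes on either side were read in RefSeq order. Around C2 the other 6 genes, CFB among them, lay between -0.82 and 0.19, and around C3 between -0.84 and 0.33, and none met the rule. Around CFD 1 of 6 did, the gene PALM at -1.57. Beside CFB they were C2 and TNXB (-1.37), beside C5 CNTRL (1.48), beside CD59 HIPK3 (1.38) and LMO2 (-1.96), and beside CFI ELOVL6 (1.11). Around CD46 and CD55 none did. TNXB and LMO2 passed the filter only through MHCC97L, so neither could have been called higher. By the same rule 7.06% of all kept genes were higher and 4.65% lower. CD46 and CD55, both in the cluster of complement regulators on chromosome 1 and adjacent among kept genes only, had log2 ratios of 0.81 and 0.59. The next kept genes on the far side of each, PLXNA2 and YOD1, stood at -0.20 and 0.46.

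Much of the rest of the cascade was barely read in either library. Of 15 genes that start the classical and lectin pathways, 2 were kept and none met the rule. They were the C1 proteases C1R, at 3.68 CPM against 4.38 CPM, and C1S, at 1.24 CPM against 1.19 CPM. C4A had 11 reads against 8 and C4B 3 against 2, and reads of these near-identical copies cannot be told apart with certainty. The recognition genes MBL2, FCN1 and FCN2 had no read in either library. Of 5 genes of the alternative pathway and the C3 convertases, 4 were kept, all members, with 3 lower and a median log2 ratio of -1.37. With the GC and length trends removed 2 were lower and the median was -0.98. The remaining gene of the 5, CFP (properdin, which stabilises the convertase), had 24 reads against 8 and was not kept. Of 7 terminal genes C5 alone was kept, and C8A, C8B and C9 had no read in either library.

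Soluble inhibitors other than CFI were led by CLU (clusterin, which binds the attack complex). It stood at 34.9 CPM against 73.2 CPM, 2.1-fold lower in MHCC97H, with a log2 ratio of -1.07 (95% counting interval -1.18 to -0.96) that was -1.06 with the trend removed. With total counts it stood at -0.90 and did not meet the rule. CPN1, a subunit of the enzyme that inactivates anaphylatoxins, had 43 reads against 75 (log2 ratio -1.18, interval -1.77 to -0.63). These were 2 of the 3 kept genes of a list of 14, where 4.65% of all kept genes were lower. Beside the 3 members, SUSD4 was the one kept membrane regulator of a list of 6, at 0.24, and CR1 had no read. Of 10 complement receptors, C3AR1, C5AR2 and CR2 had no read. The 2 kept were ITGAM, a subunit of complement receptor 3, at 2.93 CPM against 2.00 CPM (0.55), and C1QBP, a mainly mitochondrial protein named for binding C1q, at 386.6 CPM against 270.6 CPM (0.51).

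CD55 and CD59 need a GPI anchor to stay on the membrane. All 28 genes of anchor synthesis were kept, with a median log2 ratio of 0.094, 2 higher and none lower. Over all kept genes 7.06% were higher and 4.65% lower, so the count does not set this list apart. PIGA, which acts in the first step, had 97 reads against 31 (1.25), and PGAP1, which remodels the anchor, had 290 against 90 (1.30). With the trend removed these stood at 0.49 and 0.38, and no gene of the list met the rule. The most abundant, PIGT and PIGQ, stood at -0.45 and -0.57. Of 29 other genes of GPI-anchored proteins in the table, 20 were kept, with a median of 0.13. TFPI (1.08) and the carboxypeptidase M gene CPM (1.05) were higher and none was lower. With the trend removed neither met the rule and CD109 (-1.30) was lower, where 3.64% of all genes were lower and 2.32% higher. In this list the most abundant, LY6E and BST2, stood at -0.35 and -0.31.

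**Figure D5:**
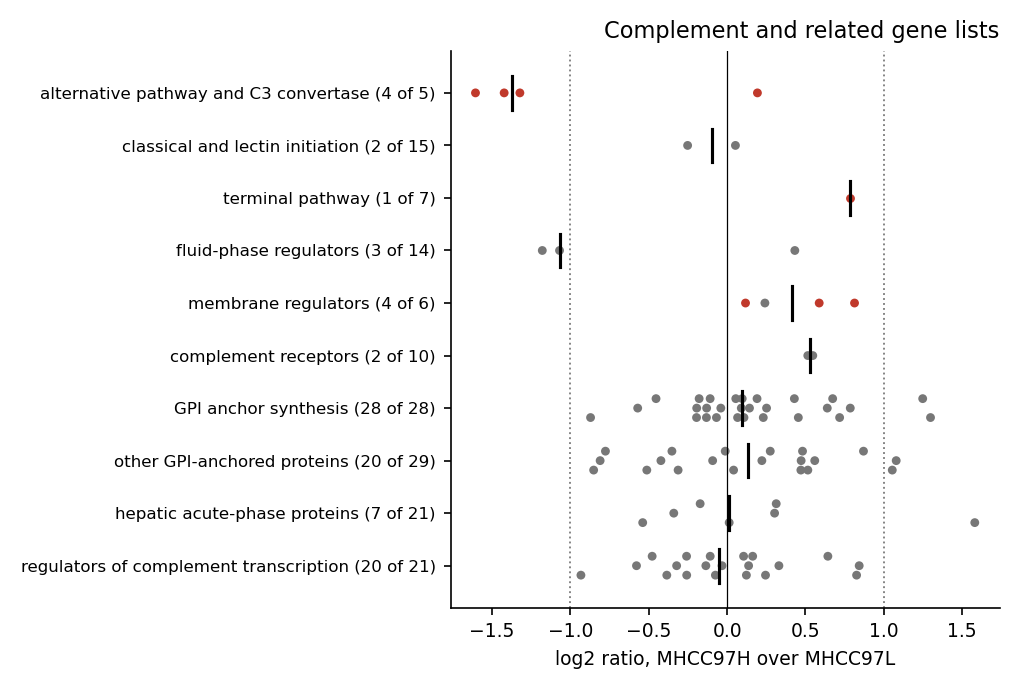
Log2 ratio of MHCC97H over MHCC97L for the kept genes of each list (points; complement genes described here in red, others in grey) with the list's median (black bar); the numbers in brackets are kept genes of those in the table, and dotted lines mark -1 and 1. The alternative pathway and C3 convertase list has its median at -1.37, the fluid-phase regulators at -1.07 and the membrane regulators at 0.41. After removal of the GC and length trends these medians are -0.98, -1.03 and 0.047.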

How the data were processed

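Per the labels' protocols, RNA of cultured cells was extracted with Trizol and libraries were made from poly(A)-selected RNA with an NEBNext Ultra kit. The authors deposited 1 table of raw read counts per gene for both libraries, with no normalisation. The tools named, per the submitters' processing notes, are bcl2fastq, HISAT2 2.1.0 and HTSeq 0.11.2, with build hg19. Which annotation was used, whether strand was used and how multi-mapping reads were treated is not stated in those notes. Reads shared by overlapping genes could be dropped or misassigned.

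A first version took TMM factors over all genes and filtered on scaled CPM. It was replaced, after its output had been seen, by the following steps, and is kept as an alternative. Genes with at least 1 CPM, from total counts, in at least 1 library were kept. TMM factors (edgeR 4.0.16, R 4.3.3) were 1.06 for MHCC97H and 0.942 for MHCC97L. Log2 ratios used a prior count of 0.5, and their intervals the exact binomial split of the gene's reads, without the prior. With 1 library per line, a rule of size replaced a test. Transcript GC content and length came from GENCODE release 29, for 94.9% of kept genes. The trend was a lowess fit with span 0.2 (statsmodels 0.14.6). The representative transcript was the longest of the principal ones. Steps were tested on simulated data. Alternatives covered scaling (total counts, DESeq2 1.42.0), filter, threshold, prior count, interval and trend. Members and lists were chosen with earlier results of these data known. Named genes were all members and, in each other list, those meeting the rule and the 2 most abundant. Other genes named, apart from defining markers, were chosen after their values were seen. Some genes that the rule would name are not reported here. Read ratios between members, deciles by GC content, the comparison with genes under 10 CPM, neighbours and promoter motifs were added after the data were seen. CD24 has no row in the table used here, and MELTF stands also for its older name MFI2. Python 3.11.15, scipy 1.17.1 and matplotlib 3.10.9 were used.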

Additional observations from a re-analysis of the deposited data

How the results depend on the processing

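C2 and C3 were lower in MHCC97H by the rule under each of the 10 other settings tried except the filter at 5 CPM, which removed them. Their log2 ratios ranged from -1.45 to -1.23 for C2 and from -1.63 to -1.37 for C3. A filter at 5 CPM of total counts left 0 members lower, because C2, C3 and CFD (4.93 CPM in MHCC97L) did not pass it, and the median of the members that did was 0.39. CFD was not lower with the GC trend removed (-0.87) or with the GC and length trend removed (-0.71). The median of the members was 0.33 with total counts, -0.061 with the GC trend removed and -0.13 with both removed. At 1.5-fold 3 members were higher, against 0 at 2-fold. Total counts raised each member's log2 ratio by about 0.17, and CD46 then stood at 0.98. With an assumed coefficient of variation of 0.2 the intervals of C2, C3 and CFD still excluded equality. CD59 was negative with either trend removed (-0.17 and -0.28).

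Over all kept genes, 1029 were higher and 678 lower. The higher count was 1657 with total counts, 2813 at 1.5-fold, 307 with the GC trend removed and 321 with both removed. The lower count was 1443 with no filter, 225 with the filter at 5 CPM and 2009 at 1.5-fold. The higher share of genes meeting the rule was 60.3%, against 77.9% with total counts and 38.9% with the GC and length trend removed. The version run first (TMM over all genes, filter on scaled CPM, 14548 genes kept) was added as an alternative after the data were seen. It gave the same member counts, 3 lower and 0 higher, with a median of 0.20, C3 at -1.56, and 1126 genes higher and 636 lower.

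A median was taken as moved beyond 0.1, a limit set after the data were seen. No paired analysis was possible because each line has 1 library, and for the same reason no library was left out. Depth limits C3, C2, CFD and C5, which rest on 30 to 123 reads, and no ratio is given for CFI.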

Other observations

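Of 21 genes of the liver's acute-phase reaction, in which complement genes take part, 7 were kept. CRP, HP, APCS and SAA4 had no read in either library. The one that met the rule was CP (ceruloplasmin), with 91 reads against 23 in MHCC97L, a log2 ratio of 1.58 (95% counting interval 0.92 to 2.33) in the direction opposite to C3, and 0.84, short of the rule, with the GC and length trend removed. CP passed the filter only through MHCC97H, so it could not have been called lower. By the same rule 7.06% of all kept genes were higher. SERPINA1 stood at -0.54 and AGT at -0.34. The fibrinogen genes FGA, FGB and FGG had 31 reads against 19, 34 against 21 and 22 against 13, each gene named after its values were seen. The log2 ratios were 0.31 for FGA (-0.55 to 1.23) and 0.30 for FGB (-0.52 to 1.17), with intervals that include equality. With the trend removed they were -0.16 and -0.19, and FGG was not kept.

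Transcription factors and receptors known to act on complement genes in hepatocytes made a list of 21. Of these 20 were kept and none met the rule. The median log2 ratio was -0.053, and -0.0054 after the trend was removed. CEBPB stood at -0.58. HNF4A had 80.8 CPM against 96.6 CPM (-0.26). Chosen after their values were seen, CEBPD stood at -0.93 and the interleukin-6 receptor subunit gene IL6ST at 0.84, and with the trend removed at -0.34 and -0.019.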
